A study of Zea mays with 318 samples.

Results

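The genes described here were chosen by their correlation with GRMZM2G111306, the gene ID given for MRP1, a MYB-related regulator of the basal endosperm transfer layer. That name comes with the rule alone: the RefSeq table used here has no entry for this ID and lists MRP1 as a synonym of another gene, GRMZM2G113203, so the identity could not be checked by annotation. Among the 20482 genes with a median above 1 FPKM (fragments per kilobase of gene, scaled to the size of the library), of 39625 genes in the table, the 99 with the highest Spearman correlation (rho) of FPKM with GRMZM2G111306 over 318 maize inbred lines were taken, and GRMZM2G111306 was added as the 100th member. GRMZM2G111306 itself did not pass the level filter, since its median was 0 FPKM. Each line gave 1 RNA-seq library of whole kernels at 5 days after pollination (DAP). For the lines in the study's own list of mapped libraries, the paper states that seeds of 3 field blocks were mixed before RNA extraction. Those lines were planted in the same province and year. The other 36 lines are not in that list, and the paper does not describe how they were grown or mixed. There was no treatment and no replicate library. The labels give only line names, which fall into 98 CIMBL, 40 CML and 46 GEMS lines, and the remaining lines with none of these prefixes (called unprefixed), so a series is a set of inbred lines and not a replicated condition. Related lines are not independent samples. A whole kernel at this stage holds the embryo, the endosperm and the surrounding maternal tissue, so fewer cells of a type and less RNA per cell cannot be told apart.

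The basal endosperm transfer layer is the tissue at the base of the endosperm that takes up sugars and amino acids from the mother plant. Its cells form wall ingrowths that enlarge the membrane, use a cell wall invertase (encoded by mn1) to split sucrose, and secrete small cysteine-rich peptides, among them the BETL, BAP and MEG families. MRP1 is known from maize as an activator of several of these peptide genes, and it is switched on early, while the endosperm is still forming cells.

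The libraries held 6100624 to 29629212 counts on genes, with a median of 13625468. The developmental consistency of a line, which is the Pearson correlation between its values and the average of all lines at the 1000 genes of highest mean FPKM, had a median of 0.829 and was below 0.6 in 12 lines. Among marker genes resolved through names in the RefSeq table, 3 of 17 transfer layer genes had a median above 1 FPKM, against 4 of 5 maternal tissue genes and 0 of 6 embryo genes.

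GRMZM2G111306 was close to absent from these kernels. It had 100 reads in all 318 libraries together, out of 4522599858, and 44 lines (13.8%) had at least 1 read. Of these, 23 lines had 1 read, 12 had 2 and 9 had 3 or more. The line BZN stood apart with 23 reads, which is 1.35 FPKM. CML114 followed with 6 reads, TIAN77 with 5 and CIMBL106 with 4, while CHANG7-2, CIMBL32, GEMS6, LIAO138 and TY3 had 3 each. The lowest and the median line had no read. In the median library 1 read was worth 0.0691 FPKM, so that a count of 0 allows a level of up to 0.207 FPKM (3 counts, covering counting error only), and this limit ran between 0.0914 and 0.468 FPKM over the libraries. For 274 lines the transcript was therefore not detectable at this depth, which does not show that it was absent.

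**Figure D1:**
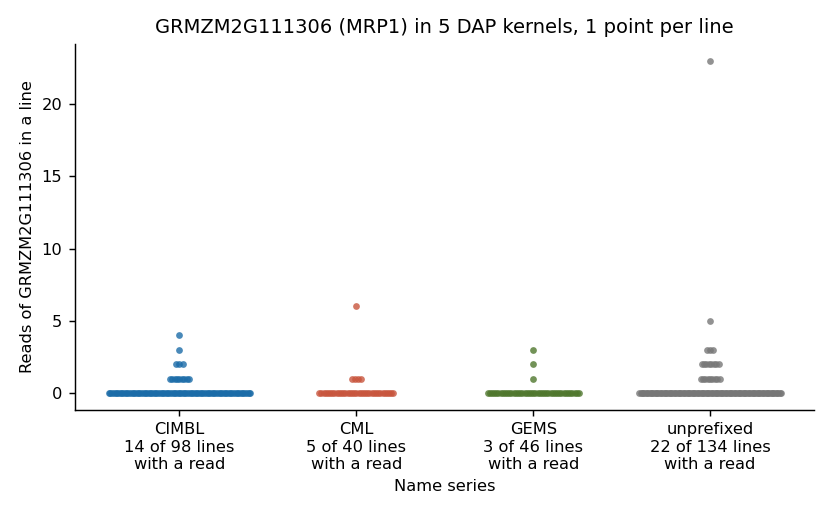
Reads of GRMZM2G111306 (MRP1) in each of the 318 lines (vertical axis), by name series (horizontal axis), with 1 point per line. Most lines lie at 0 in every series, and the line BZN, with 23 reads, lies far above the next line, CML114, with 6.

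A read was found in 14 of 98 CIMBL lines, 5 of 40 CML lines, 3 of 46 GEMS lines and 22 unprefixed lines (16.4% of them). The mean level on the log2(FPKM + 1) scale was 0.019 in CIMBL, 0.022 in CML, 0.0086 in GEMS and 0.035 in unprefixed lines. None of the 6 pairs of series passed a two-sided permutation test with 100000 resamples. The largest difference, GEMS minus unprefixed, was -0.027 with p = 0.148 and an adjusted p of 0.531 (Benjamini-Hochberg over 6 pairs). In an edgeR quasi-likelihood fit over all 37288 genes with a count, the gene was called lower in CIMBL than in unprefixed lines (log2 fold change -0.74, adjusted p = 0.031) and lower in GEMS than in unprefixed lines (log2 fold change -1.32, adjusted p = 0.00936). Without the line BZN those values were -0.30 (adjusted p = 0.479) and -0.87 (adjusted p = 0.168), so that both calls rested on 1 library. Over all lines, relations with sequencing depth and with developmental consistency did not pass the test. Consistency is closeness to the average of all lines, so it cannot tell an early line from a late line. A relation with stage itself was not tested. Across the 318 lines, FPKM of GRMZM2G111306 had rho = 0.074 with the total count (permutation p = 0.186, adjusted p = 0.373 over 2 relations) and rho = -0.044 with developmental consistency (permutation p = 0.431, adjusted p = 0.431). Pearson's r of log2(FPKM + 1) was 0.031 with the total count (permutation p = 0.536) and -0.035 with consistency (permutation p = 0.525). Leaving out the 2 lines farthest from the median gave r = 0.043 for the total count and r = -0.018 for consistency. Within series, rho with the total count ran between -0.121 in CML and 0.179 in GEMS, and rho with consistency between -0.142 in CML and 0.015 in unprefixed lines. Pearson's r with the total count within GEMS was 0.342 (permutation p = 0.0357, not adjusted).

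Other transfer layer genes were present in part of the same lines. This list holds 17 genes besides MRP1, of which 13 had a median of 0 FPKM, and its summed level ran from 10.6 to 317 FPKM over the lines with a median of 51.5, carried mainly by mn1. Their median rho with GRMZM2G111306 was 0.249, against -0.0054 over the 37287 other genes with a count, and 11 of the 17 had a rho above 0.2. The highest rho of all these genes, 0.454, belonged to GRMZM2G088896, which shares a RefSeq record named meg2 and MEG6 with GRMZM2G094054, and the next, 0.430, to betl10 (GRMZM2G091445). MEG2 and MEG6 belong to a family of maternally expressed cysteine-rich peptides, and reads of such near-identical copies can be lost or split where unique alignments are kept. GRMZM2G088896 had reads in 13 lines, of which 11 also had a read of GRMZM2G111306, so that the shared lines made up 84.6% of its lines and 25% of those of GRMZM2G111306. The other ID of that record, GRMZM2G094054, had a lower rho of 0.263, and 10 of its 23 lines were shared (43.5%). For betl10 there were 18 shared lines, which is 54.5% of its 33 lines and 40.9% of those of GRMZM2G111306. Shared lines were 19 of 48 for betl2 (39.6%), 12 of 33 for tcrr-1 (36.4%) and 18 of 71 for betl3 (25.4%). The antifungal-like peptide gene bap-3a (GRMZM2G133382) had rho = 0.377, betl2 (GRMZM2G152655) 0.352, MEG1 (GRMZM2G354335) 0.327, bap-3b (GRMZM2G133370) 0.310 and betl1 (GRMZM2G082785) 0.288. Some of these rest on few reads: MEG1 had 12 reads in 7 lines and bap-3b 24 reads in 8 lines, with 6 shared lines each.

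The transfer layer genes that were present in nearly all lines did not have this pattern. The invertase gene mn1 (GRMZM2G119689) was found in all 318 lines, with a lowest level of 1.97, a median of 39.2 and a highest level of 239 FPKM, and its rho with GRMZM2G111306 was -0.033. The values of ebe1 (GRMZM2G129157) and ebe2 (GRMZM2G167733), transcripts of the basal endosperm, were -0.023 and 0.078, at medians of 3.99 and 4.58 FPKM. For betl4 (GRMZM2G073290), with reads in 194 lines, rho was -0.084. Of the 13 transfer layer genes with a median of 0, all 13 had reads in CML114 and in GEMS6, and 11 in BZN, whereas 186 of the 318 lines had reads of none. Detection of GRMZM2G111306 and of these genes did not always go together. CML69 had reads of 10 of these genes and no read of GRMZM2G111306, while CHANG7-2, with 3 reads of GRMZM2G111306, had reads of none and CIMBL106, with 4, had reads of 1. Without CML114, GEMS6 and BZN, left out after seeing the data, 6 of 17 genes had a rho above 0.2 and the median was 0.173. BZN had a consistency r of 0.737, CML114 of 0.837 and GEMS6 of 0.854, with totals of 14066876, 15123901 and 23735455 counts. In the edgeR fit over all genes with a count, 9 of the 17 were called between CIMBL and unprefixed lines (1 higher in CIMBL, 8 lower), beside 25.2% of all genes. Between CML and unprefixed lines 3 were called, all higher in CML, beside 15.3%, and between GEMS and unprefixed lines 2, both lower in GEMS, beside 7.75%. Without BZN, the counts higher and lower were 1 and 4 for CIMBL, 8 and 0 for CML, and 0 and 0 for GEMS. Of all 37282 genes in that fit, 4136 were higher and 5227 lower in CIMBL. The numbers were 2515 and 3208 for CML, and 1294 and 1600 for GEMS. The fit was not repeated without CML114, a CML line with reads of all 13 genes of median 0, so the 8 may rest on that library.

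None of these 17 genes was among the members, since 13 had a median of 0, betl4 had a median of 0.124 FPKM, and mn1, ebe1 and ebe2 had a rho near 0. No member was on any of the other marker lists (embryo surrounding region, aleurone, starchy endosperm, embryo, maternal tissue, cell division). The median rho with GRMZM2G111306 was 0.201 over the 6 embryo surrounding region genes, which are expressed in the endosperm around the embryo, and it lay between -0.018 and 0.038 for the other 5 lists. Only genes with a median above 1 FPKM could be members. These were 3 of 17 transfer layer, 1 of 6 embryo surrounding region, 3 of 7 aleurone and 5 of 10 starchy endosperm genes. They were also 0 of 6 embryo, 4 of 5 maternal tissue and 3 of 3 cell division genes. With so few that could be chosen, the lists cannot decide what the 99 members are. No transfer layer name is given to them, and they are called here by the rule that chose them.

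The correlations that chose the 99 members were weak. They ran from 0.205 to 0.327 with a median of 0.224, over lines of which 274 shared the value 0 for GRMZM2G111306. Over all 20482 genes that could have been chosen, the median was -0.0056, the 1st percentile -0.203 and the 99th percentile 0.189, with a lowest value of -0.297, so the distribution had no separate group of high values at the upper end. The last 3 genes inside the choice were GRMZM2G152963 (rho 0.2050), GRMZM2G013639 (0.2050) and AC233865.1_FG006 (0.2049), and the first 3 outside were GRMZM2G096070 (0.2046), GRMZM2G180720 (named gpt, 0.2046) and GRMZM2G026043 (0.2044). A correlation of this size with a gene of 0 to 3 reads in nearly all lines is given as a description of how the members were chosen and not as a finding. Of the 37287 genes with a count, 10 had a rho above that of the highest of the 99 members, and all 10 had a median of 0 FPKM.

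**Figure D2:**
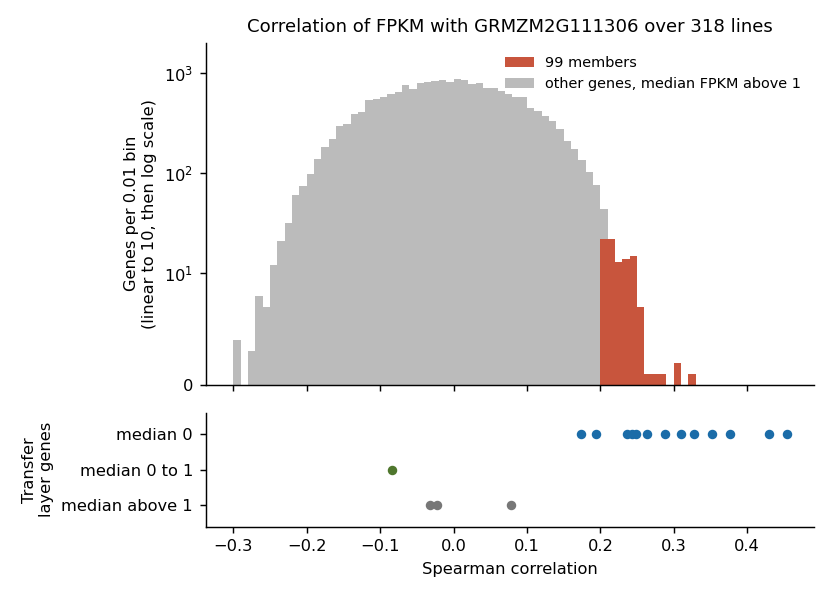
Upper panel: number of genes (vertical axis, linear to 10 and then logarithmic) by Spearman correlation of FPKM with GRMZM2G111306 over 318 lines (horizontal axis, bins of 0.01), with the 99 members in red and the other genes with a median above 1 FPKM in grey. Lower panel: the 17 transfer layer genes on the same axis, 1 point per gene, by their median FPKM; the 13 with a median of 0 lie at positive values, and the 3 with a median above 1 lie near 0.

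Within the series, the members' median rho with GRMZM2G111306 was 0.209 in CIMBL, 0.273 in CML, 0.084 in GEMS and 0.272 in unprefixed lines. All 99 were above 0 in CIMBL and in unprefixed lines, 98 in CML and 76 in GEMS, where only 3 lines had a read of GRMZM2G111306. These values come from the lines that chose the members and are a description.

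Few members have a known role. RefSeq gave an entry for 69 of the 100 members, in most cases a locus number or clone name alone, and none for GRMZM2G111306. Among the 69, no pair lay within 5 genes of each other in the RefSeq gene order (Zm-B73-REFERENCE-NAM-5.0), so these 69 are not runs of neighbours. The other members could not be placed in that order. Named members include chaperones, which help other proteins to fold: HSP90-1 (GRMZM2G024668) and HSP90-2 (GRMZM2G012631) of the HSP90 family, and bip1 (GRMZM2G114793) and bip2 (GRMZM2G415007), the Hsp70-type chaperones of the endoplasmic reticulum. Others are HAK12 (GRMZM2G009353), a potassium transporter of the HAK family, D53 (GRMZM2G109674), named after a repressor of strigolactone signalling in rice, FAR1.10 (GRMZM2G129311), of a family of transposase-derived transcription factors known from light signalling in Arabidopsis, srp30 (GRMZM2G331811), a splicing factor of the SR type, and MMT1 (GRMZM2G098039), a methionine S-methyltransferase. The chaperones were singled out after their values were seen.

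The members were mostly genes of moderate and even level. Their medians ran from 1.04 FPKM (GRMZM2G139412) to 404 FPKM (HSP90-1), and the median over the 99 was 19.2 FPKM, against 9.53 FPKM over all genes with a median above 1. A median below 10 FPKM was found for 28 members, 10 to 100 FPKM for 64 and 100 FPKM or more for 7. The 3 highest were HSP90-1, AC233866.1_FG006 (330 FPKM) and HSP90-2 (299 FPKM), and the 3 lowest GRMZM2G139412, GRMZM2G406552 (1.26 FPKM) and GRMZM2G145473 (1.30 FPKM). The coefficient of variation (CV, SD over mean across lines) had a median of 28.3% over the members and 41.9% over all genes with a median above 1, and the ratio of the 90th to the 10th percentile had medians of 1.92 and 2.82. The 3 most even were GRMZM2G065276 (CV 14.2%), GRMZM2G050218 (15.4%) and GRMZM2G134770 (15.9%). The 3 most variable were GRMZM2G406552 (228%), GRMZM5G815477 (191%) and GRMZM2G166234 (163%). Reads were found in every line for 89 members (89.9%), against 83.7% of all genes with a median above 1.

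**Figure D3:**
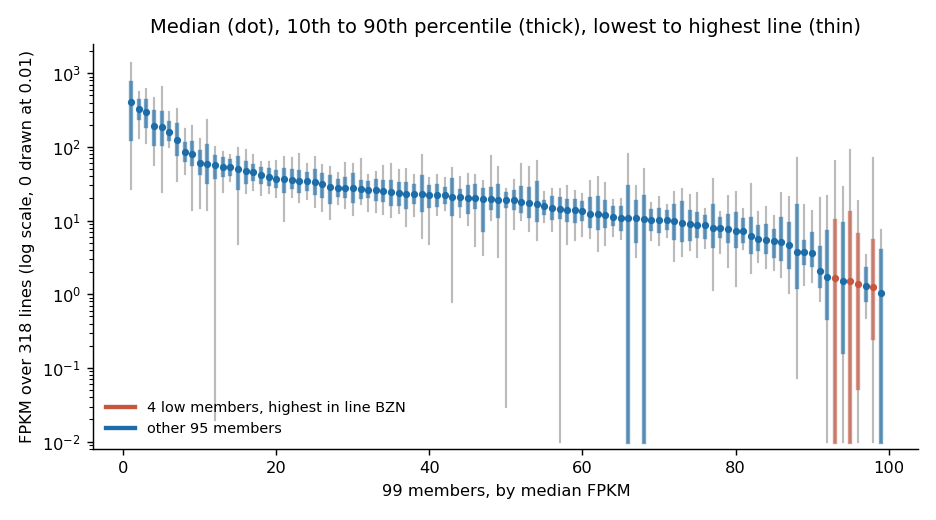
FPKM over 318 lines (vertical axis, logarithmic, with 0 drawn at 0.01) of the 99 members in order of their median (horizontal axis): dots are medians, thick bars the 10th to 90th percentile and thin bars the lowest to highest line. The thick bars are short for most members, and the 4 members in red, with medians below 2 FPKM and their highest value in BZN, have long ones.

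The highest member, GRMZM2G116386 (rho 0.327, named in RefSeq by a locus number alone), had no read in 27 lines, a median of 1.39 FPKM and a highest level of 18.7 FPKM in BZN. Its next lines were Q319-BC6 (18.1 FPKM), HZ4 (16.3 FPKM) and TIAN77 (14.1 FPKM). GRMZM2G431314 (rho 0.305) was quite different, with 11.7 FPKM in its lowest line, a median of 23.03 and 41.9 in its highest line, GEMS65. BZN, the line with most GRMZM2G111306, stood at 21.01 FPKM for this gene, below the median. GRMZM2G316967 (rho 0.304) ran from 5.82 through a median of 22.9 to 78.2 FPKM. GRMZM2G166234 (rho 0.287) ran from 0, in 58 lines without a read, through a median of 1.65 to 64.2 FPKM in BZN. GRMZM2G123499 (rho 0.271) had a median of 12.4 FPKM, GRMZM2G111818 (0.270) of 39.7, GRMZM2G022768 (0.259) of 13.7, GRMZM2G129218 (0.254) of 12.4 and GRMZM5G854613 (0.252) of 61.2, and all had reads in every line. AC215201.3_FG003 (rho 0.257) had a median of 1.71 FPKM, a CV of 106.1% and a highest level of 21.5 FPKM in CIMBL55.

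The members varied together. Over the 4851 pairs of the 99 members, the median rho was 0.301 (25th to 75th percentile 0.165 to 0.428, lowest -0.292, highest 0.841), and 94.4% of pairs were above 0. The mean over all pairs was 0.298 among the members, against 0.0013 over all genes with a median above 1. A shared correlation with GRMZM2G111306 raises the correlation among the members, so the value is given without a test, and the points share libraries, size factors and the kinship of the lines. The leading principal component of the members' normal scores held 34.7% of their variance, followed by 7.16% and 5.75%, and 98 of 99 loadings on it were above 0. Over lines, this component had rho = -0.254 with developmental consistency and -0.047 with the total count. Its rho of 0.361 with GRMZM2G111306 follows from the choice of the members by that gene. The part of developmental stage in the shared variation was not tested. With 10 principal components of the whole filtered table taken out, the median correlation among members was 0.043 and the median correlation with GRMZM2G111306 was 0.113, which is below the 99th percentile of the filtered genes on that scale, 0.162. On that scale the 3 highest members were GRMZM2G116386 (0.373), GRMZM2G406552 (0.364) and GRMZM2G166234 (0.308), and the 3 lowest GRMZM2G003022 (-0.054), GRMZM2G134668 (-0.023) and GRMZM2G451672 (0.0036).

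**Figure D4:**
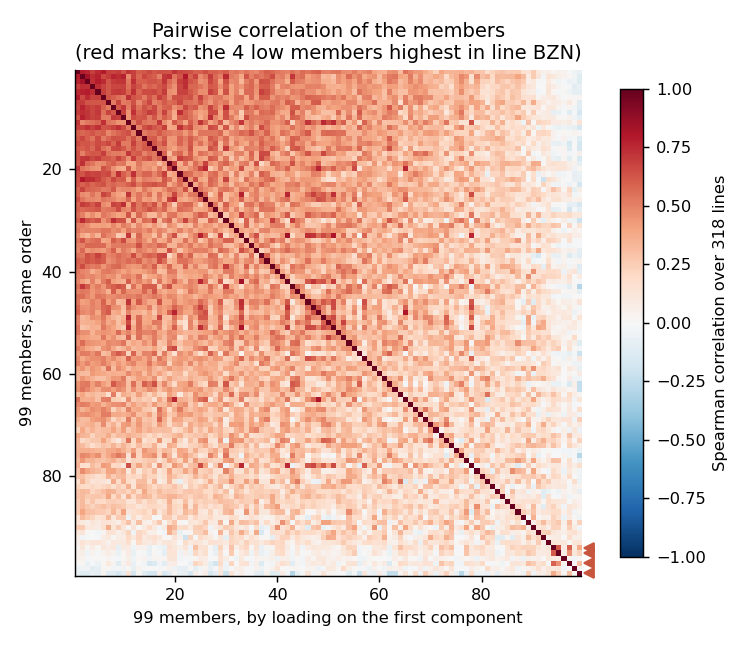
Spearman correlation over 318 lines between each pair of the 99 members (colour scale from -1 to 1), with both axes ordered by the loading on the leading component. Most of the square is red, and the 4 low members marked at the right edge lie at the pale end, with values near 0 to the members at the other end.

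The closest pairs were HSP90-2 with GRMZM2G096585 (rho 0.841), GRMZM2G019236 with GRMZM2G451672 (0.836) and bip2 with bip1 (0.806). The chaperones formed part of this shared variation, with rho between 0.450 (HSP90-1 with bip1) and 0.806 over their 6 pairs. HSP90-1 ran from 27.3 FPKM through a median of 404 to 1377 FPKM, in a line whose consistency r of 0.493 was the lowest but 1. HSP90-2 ran from 112.2 through 299 to 618 FPKM and was the more even of the pair (CV 29.1% against 59.9% for HSP90-1). The levels of bip1 ran from 24.7 through 188.8 to 657 FPKM and those of bip2 from 13.8 through 59.3 to 231 FPKM, and both had their highest level in CIMBL124. Among the 318 lines from high to low, BZN had ranks from 230 for bip2 to 296 for HSP90-1, so the line with most GRMZM2G111306 was in the lower part for all 4. CIMBL129 was the highest line for 13 of 99 members, against 0.908% of all genes with a median above 1. It had 1 read of GRMZM2G111306 and a consistency r of 0.682. The rule correlated genes with GRMZM2G111306 and the members vary together, so nothing is read from the 13 of 99.

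The members differed in how far they went with the other transfer layer genes. As a readout that does not include GRMZM2G111306, the number of the 13 transfer layer genes with a median of 0 that had a read was counted in each line, after the values had been seen. GRMZM2G111306 itself had rho = 0.274 with this number. The members' median rho with it was 0.110, against 0.00089 over all genes with a median above 1, whose 99th percentile was 0.193. All 99 members were above 0 and 12 above 0.2, and 167 of all 20482 genes were above 0.2, members included. Of those 12, 4 are the low members described next and 8 are others, the highest of them GRMZM2G431314 (0.282). Of the 99 genes with a median above 1 that had the highest rho with this number, 9 were members, which is 9.09% of each list. Each list holds 99 of the 20482 genes. The highest and the third highest of all 20482 genes were members, GRMZM2G116386 (0.431) and GRMZM5G815477 (0.390), and GRMZM2G166234 (0.357) was the fifth. Because the members and the number both go with GRMZM2G111306 over the same libraries, these values are a description.

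Besides GRMZM2G116386 and GRMZM2G166234, the members GRMZM2G406552 and GRMZM5G815477 had a median below 2 FPKM and their highest level in BZN, and these 4 were grouped after their values were seen. GRMZM2G406552 had a median of 1.26 FPKM and reached 70.01 FPKM in BZN, 55.9 FPKM in CML114 and 50.6 FPKM in B11. GRMZM5G815477 had no read in 86 lines, a median of 1.49 FPKM, and reached 92.3 FPKM in BZN, 57.2 FPKM in GEMS21 and 44.1 FPKM in CIMBL75. Correlations among the 4 ran from 0.226 (GRMZM2G166234 with GRMZM2G406552) to 0.615 (GRMZM2G116386 with GRMZM2G166234). Their median rho with the other 95 members was 0.102 for GRMZM2G116386, 0.070 for GRMZM2G166234, 0.040 for GRMZM5G815477 and -0.013 for GRMZM2G406552, whereas the median over pairs of the other 95 was 0.319. With betl2, the transfer layer gene of the list with most reads among those of median 0, rho was 0.457 for GRMZM2G116386, 0.414 for GRMZM2G406552, 0.368 for GRMZM5G815477 and 0.346 for GRMZM2G166234. BZN, by which the 4 were grouped, had 25.5 FPKM of betl2, next to the highest line, CML114 (28.2 FPKM). The values with betl2 were not recomputed without BZN or set against all genes, and they are a description. Without BZN, CML114 and GEMS6, rho with the number of transfer layer genes was 0.415 for GRMZM2G116386, 0.376 for GRMZM5G815477, 0.346 for GRMZM2G166234 and 0.269 for GRMZM2G406552. For GRMZM2G431314, which is not among the 4, it was 0.293. BZN was the highest line for 5 of 99 members, the fifth being GRMZM2G119571, and for 0.723% of all genes with a median above 1. The rule correlated genes with GRMZM2G111306, which was itself highest in BZN, so nothing is read from this share.

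**Figure D5:**
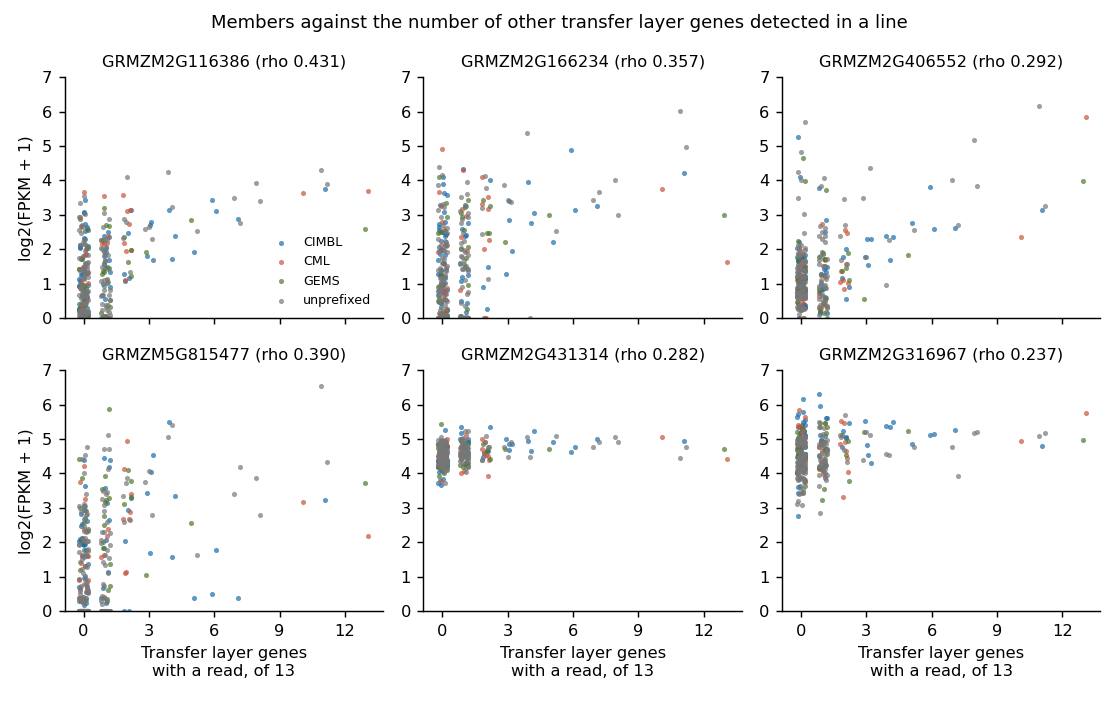
log2(FPKM + 1) of 6 members (vertical axes) against the number of 13 transfer layer genes with a read (horizontal axes), with 1 point per line, coloured by name series and spread sideways within a number. The upper row and the lower left panel show the 4 low members, with wide ranges and with exceptions such as CML114, which had all 13 genes and 2.08 FPKM of GRMZM2G166234. The other panels show GRMZM2G431314 (11.7 to 41.9 FPKM) and GRMZM2G316967 (5.82 to 78.2 FPKM), with reads in every line.

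Between name series, many members differed by small amounts. The edgeR quasi-likelihood fit over the 20482 genes called 30 of 99 members higher in CIMBL than in unprefixed lines, beside 10.0% of all genes tested, and 2 lower, beside 12.2%. In CML, 17 members were higher than in unprefixed lines, beside 4.64% of all genes, and 0 lower, beside 6.11%. In GEMS, 0 members were higher, beside 1.48% of all genes, and 2 lower than in unprefixed lines, beside 1.46%. The rule correlated genes over all lines together and the members vary together, so nothing is read from these shares. Of the members higher in CIMBL and those higher in CML, 15 were shared, which is 50% of the CIMBL list and 88.2% of the CML list, and both comparisons use the same unprefixed lines. The overlap over all genes tested was not counted, so nothing is read from this overlap either. The median log2 fold change of the members was 0.085 in CIMBL, 0.11 in CML and -0.039 in GEMS, against -0.0073, -0.019 and -0.0097 over all genes tested.

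GRMZM2G316967 had the lowest adjusted p of the members in CIMBL, and 4 other members had a lower one in CML. Its levels ran from 5.82 through a median of 26.4 to 78.2 FPKM in CIMBL lines, with medians of 26.6 FPKM in CML lines, 22.6 FPKM in GEMS lines and 20.3 FPKM in unprefixed lines, and the series overlapped. Its log2 fold change against unprefixed lines was 0.40 ± 0.076 in CIMBL (SE, edgeR adjusted p = 2.04e-05) and 0.39 ± 0.10 in CML (adjusted p = 0.00531). GRMZM2G139412, the member of lowest median, had the largest increases among the members called, 0.73 ± 0.26 in CIMBL (adjusted p = 0.0294) and 1.01 ± 0.33 in CML (adjusted p = 0.032), at medians of 1.10 FPKM in CIMBL, 1.59 FPKM in CML and 0.916 FPKM in unprefixed lines. The chaperone genes bip2 and bip1 were higher in CIMBL than in unprefixed lines by 0.33 (adjusted p = 0.00171) and 0.28 (adjusted p = 0.00147) on the log2 scale, at medians of 64.4 FPKM in CIMBL against 57.5 FPKM in unprefixed lines for bip2, and of 210.2 FPKM in CIMBL against 179 FPKM in unprefixed lines for bip1. HSP90-1 was lower in GEMS, with a median of 209.5 FPKM against 399 FPKM in unprefixed lines (log2 fold change -0.56, adjusted p = 0.0267), and HSP90-2, at medians of 283 FPKM in GEMS and 280.1 FPKM in unprefixed lines, did not pass the test (log2 fold change -0.031, adjusted p = 0.878). GRMZM2G433446 was lower in GEMS (log2 fold change -1.63, adjusted p = 0.00103) and in CIMBL (-0.71, adjusted p = 0.0212) than in unprefixed lines. Of the 4 low members, GRMZM2G406552 was called lower in CIMBL (log2 fold change -0.74, adjusted p = 0.0215), and in the fit over all genes with a count this call was lost without BZN (-0.54, adjusted p = 0.0968). The other 3 low members were not called in any of the 3 comparisons, with log2 fold changes between -0.63 and 0.41.

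The choice of members depended strongly on how likeness was measured. Of the 99 members, 96 were chosen again with TMM library sizes, 94 with GRMZM2G111306 taken as detected or not, 82 without the line BZN and 74 with CPM, counts divided by the library total. With Pearson's r of log2(FPKM + 1) in place of the rank correlation 22 were chosen again, and after removal of 10 principal components 18. Without the unprefixed lines 32 were chosen again, and without the CIMBL lines 44. No member was chosen under all 17 alternatives, while 71 were chosen under at least 10. GRMZM2G116386, GRMZM2G123499, GRMZM2G316967 and GRMZM2G406552 were chosen under 16.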

How the data were processed

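RNA-seq was made from 5 DAP kernels of 318 lines. After cleaning, TopHat2 placed the reads on B73 AGPv3 without strand, and unique alignments were counted on Ensembl release 27 genes with GenomicFeatures and GenomicAlignments (versions not given in the sources used here). The deposited counts are whole reads per gene, and the authors made the deposited FPKM from them with DESeq2. Unstranded reads of overlapping or antisense genes cannot be told apart, and unique alignment can undercount near-identical copies.

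Spearman correlations and permutation tests used Python 3.11.15 with numpy 2.4.6 and scipy 1.17.1. Name series were compared with edgeR 4.0.16 (quasi-likelihood test, TMM, all lines in a single fit, Benjamini-Hochberg threshold 0.05), with limma 3.58.1 and DESeq2 1.42.0 as alternatives in R 4.3.3. The edgeR fit and the choice of members were also run on simulated data. Those runs check the steps and do not show that the choice holds for a gene with so few reads. Counting error limits the precision of low values. Named genes were GRMZM2G111306, the 10 other members of highest rho, members on a marker list or annotated as regulators or transporters, the 3 highest and 3 lowest members by median, CV and correlation after removal of principal components, and 3 genes on each side of the last rank. The members and lists were chosen with earlier results of these data known. The planned promoter search was not run, because no sequence table was used here.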

Additional observations from a re-analysis of the deposited data

How the results depend on the processing

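Members chosen again fell to 22 of 99 with Pearson's r of log2(FPKM + 1), 53 with a pseudocount of 0.1, 18 with 10 principal components removed, 44 without the CIMBL lines and 32 without the unprefixed lines, and lay between 73 and 96 under the other alternatives. The median correlation among members, 0.301, was 0.236 within GEMS and 0.043 with 10 components removed. Over all 37288 genes with a count, edgeR called 9405 genes in CIMBL, 5711 in CML and 2888 in GEMS against unprefixed lines, and 9363, 5723 and 2894 without BZN, compared with 4562, 2203 and 604 of the 20482 genes with a median above 1. The last was 978 over the lines in the study's own list of mapped libraries. The unfiltered fit tested more genes, and the causes of these differences were not tested. DESeq2 called 4944, 2755 and 830 genes, and 33, 19 and 2 members. For GRMZM2G111306, no pair of series passed the permutation test under 8 alternatives (lowest adjusted p 0.337). With medians of 0 in every series, the alternative that compared medians could not have passed. The edgeR fit over all genes with a count did call the gene in CIMBL and in GEMS, but not without BZN. Leaving out BZN, CML114 and GEMS6, and taking GRMZM2G111306 as detected or not, were chosen after seeing the data. No paired analysis was possible because each line has a single library. The promoter search could not be run. Depth limits every statement on GRMZM2G111306, since most lines have no read of it.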

Other observations

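Genes below the level filter, chosen after their values were seen, went with GRMZM2G111306 more closely than the members did. GRMZM2G090697 had rho = 0.427, with reads in 10 lines, of which 9 also had a read of GRMZM2G111306. GRMZM2G027472 had rho = 0.372, reads in 61 lines and 52.7 FPKM in BZN, its highest line. GRMZM2G121137 had rho = 0.345 and 19.3 FPKM in BZN, and GRMZM2G158400 had rho = 0.342 and 41.6 FPKM in BZN. Without BZN, the rho of these 4 genes was 0.401 for GRMZM2G090697, 0.357 for GRMZM2G027472, 0.330 for GRMZM2G121137 and 0.324 for GRMZM2G158400. RefSeq names none of them beyond a locus number or clone name, and all 4 had a median of 0 FPKM.

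Among genes with a median above 1 FPKM that were not chosen, GRMZM2G003796 (rho 0.392), GRMZM2G117940 (0.375) and the cystatin gene cc8 (GRMZM2G401374, 0.326), of a family of cysteine protease inhibitors, were among the 8 with the highest correlation with the number of transfer layer genes detected in a line.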
